A study of Mus musculus with 9 samples.

Results

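The genes described here are 46 genes that act late in the cell cycle, in G2 and mitosis, and that build the spindle and divide the cell. They were taken by their symbols from the count tables, and all 46 were found among the 34590 genes listed. RNA was sequenced from the telencephalon of mouse embryos at E12.5, in mid-gestation, on a mixed strain background. The 5 wild-type (WT) libraries are labelled as wild type, and the 4 double knockout (dKO) libraries come from embryos in which Nestin-Cre removed Lats1 and Lats2. Nestin-Cre acts in neural progenitors, so blood, vessel and meningeal cells in the same tissue are not its main target. The labels do not state whether the WT embryos carried Cre or floxed alleles, nor the litters. The tissue was made into a cell suspension and counted, ERCC spike-in RNA was added in proportion to the cell number before extraction, and each library comes from an embryo of its own.

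A cell in G2 accumulates cyclin B bound to the kinase CDK1, whose activation starts mitosis; Polo and Aurora kinases then drive centrosome separation and spindle assembly, kinetochores attach chromosomes to microtubules, and the anaphase-promoting complex ends mitosis by marking cyclin B and securin for destruction. Most of these genes are transcribed together in late cell cycle through the MuvB complex with B-MYB and FOXM1, and their transcripts are low in cells that have left the cycle. In the telencephalon at this stage, dividing cells are mainly the radial glia that line the ventricle and intermediate progenitors, while neurons no longer divide. Lats1 and Lats2 encode the Hippo kinases that phosphorylate YAP and TAZ and keep them out of the nucleus. The measurements address how the transcripts of this mitotic program stand in a tissue in which Nestin-Cre targets both genes.

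Libraries held 12906561 to 45803152 counts in genes, and every member had at least 356 counts in each library. Lats1, the check of the labels, stood at 125 to 136 CPM (counts scaled to a common library size with TMM factors) in the WT libraries and at 58.8 to 61.3 CPM in the dKO libraries, without overlap. Lats2 went the other way, with 20.2 to 32.4 CPM in WT and 36.3 to 56.4 CPM in dKO (edgeR, log2 0.69, adjusted p = 0.0144); the labels do not state which exons are deleted, so a count over the whole gene does not check that label. Emx2, Lhx2 and Dlx2, markers of the telencephalon, passed the filter on low counts, while 7 hindbrain and spinal cord markers summed to at most 0.794 CPM in any library, with Hoxb8 at 0 throughout. Gene counts per spike-in count, which stand for RNA per counted cell if cell numbers and doses were equal between tubes, were 58.1 ± 6.10 in WT (SD, n = 5) and 79.1 ± 5.90 in dKO (n = 4), a 1.36-fold difference (two-sided exact permutation test, p = 0.00794, which is the lowest value 126 assignments can give). WT 2, 3 and 4 stood apart from the rest by 39.3% to 41.3% of reads in no gene, whereas the other 6 libraries had 32.0% to 35.6%. Fits without these 3 libraries are therefore given beside the results they change. They leave only WT 1 and WT 5 against the 4 dKO libraries, and fewer genes of any kind pass in them. A call lost there need not mean a smaller difference. Without WT 2, 3 and 4 the rise of Lats2 was 0.41 on the log2 scale and did not pass (adjusted p = 0.218, edgeR).

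All 46 members rose per spike-in count in dKO (edgeR, adjusted p under 0.05), where 61.1% of the 17182 genes tested did so. Their log2 differences ran from 0.38 for Ncapd2 to 1.09 for Ect2, with a median of 0.60 against 0.43 over all genes. For all 46 the lowest dKO library lay above the highest WT library on this scale, as it did for 48.4% of genes. The summed counts of the members were 0.486, 0.406, 0.501, 0.499 and 0.533 per spike-in count in WT 1 to 5, and 0.661, 0.8, 0.677 and 0.731 in dKO 1 to 4. The highest WT sum was thus below the lowest dKO sum, and the mean log values of the groups lay 1.48-fold apart. Without WT 2, 3 and 4 the per spike-in rise passed for 44 members, against 48.2% of genes. Mki67 (log2 0.34, adjusted p = 0.0553, edgeR) and Ncapd2 (0.32, adjusted p = 0.0536) did not pass. Bulk libraries cannot tell more dividing cells from more RNA of these genes in each dividing cell.

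Relative to the library, that is against the typical gene after TMM scaling, the excess of these genes was small and uneven. In this fit 24 of 46 rose and 0 fell, with a median log2 difference of 0.16 against -0.01 over all genes. Rises made up 13.7% and falls 12% of all genes tested. At an unadjusted p under 0.05 edgeR gave 30 rises and 0 falls, but the share of all genes at that threshold was not computed. DESeq2 and limma-voom called 25 and 26 rises and 0 falls, where 14.5% and 14.3% of all genes rose. For 12 members all dKO libraries lay above all WT libraries, an order seen for 12.6% of genes. Without WT 2, 3 and 4 only Ect2 and Hmgb2 passed, the other 22 calls were lost, and the median was 0.08. In that fit 2.33% of all genes rose, against 13.7% with all libraries. At an unadjusted p under 0.05 it gave 10 rises and 0 falls among the members, again without a share over all genes. The count of rises was 13 without WT 2, 12 without WT 3 and 16 without WT 4, where 10.6%, 10.3% and 10.9% of all genes rose. It was 15 without dKO 1, 13 without dKO 2 and 15 without dKO 4, where 11.1%, 12.2% and 10.9% of all genes rose. Whichever single library was left out, 11 members were called: Ccnb1, Cks1b, Bub1, Aurkb, Cdca8, Tacc3, Dlgap5, Ect2, Smc4, Hmgb2 and Lbr. Each such fit called 10.3% to 14.9% of all genes higher, and the share of genes called in every one of them was not computed. With the share of reads in no gene as a covariate 6 passed (Aurkb, Ect2, Hmgb2, Lbr, Smc4 and Tacc3), where 5.76% of all genes rose.

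**Figure D1:**
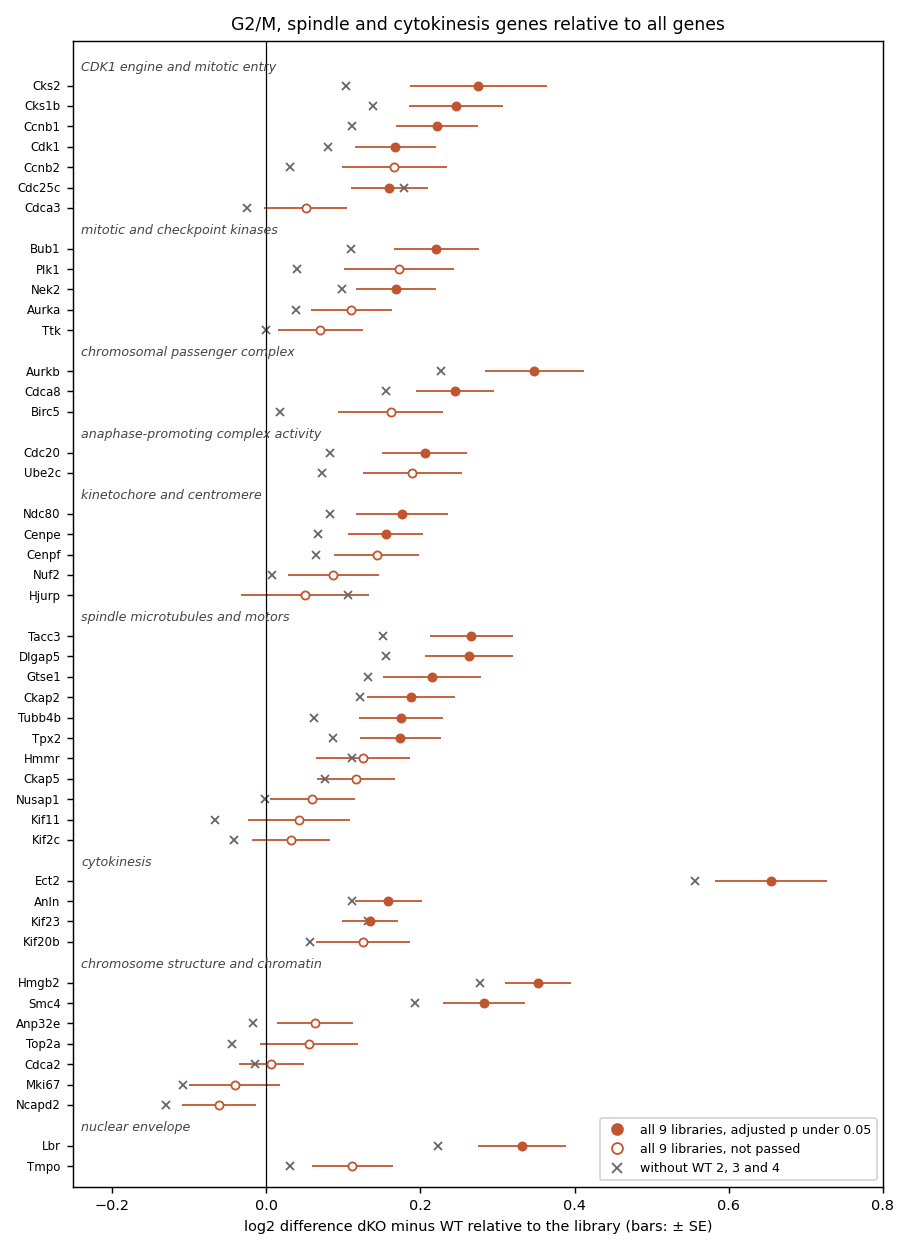
Log2 difference dKO minus WT relative to the library for each of the 46 members, ordered by role, with ± SE bars; filled circles passed at an adjusted p under 0.05 (edgeR, 5 WT and 4 dKO libraries), open circles did not, and crosses are the fit without WT 2, 3 and 4. Ect2 at 0.65 lies to the right of every other member, Mki67 and Ncapd2 lie just below 0, and most crosses lie nearer to 0 than their circles.

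The sequences before the start sites of 4 members show letters known from late cell cycle promoters. They were taken in order of adjusted p, 1 per role group, from windows that hold at least 1 of the motifs searched, so that a motif in them is no finding; Aurkb had no window and the window of Tacc3 held none of the letters, and Cdca8 came next. They are RefSeq windows of 250 bases upstream of the start on GRCm38.p6: Ect2 at chr3:27153879-27154128 (minus strand), Hmgb2 at chr8:57511593-57511842 (plus strand), Lbr at chr1:181842402-181842651 (minus strand) and Cdca8 at chr4:124936918-124937167 (minus strand). Capitals mark TTTGAA, the cell cycle genes homology region (CHR) that MuvB complexes contact, CCAAT, the box read by NF-Y, and GGAATG, core letters of the TEAD site, each on either strand. The reverse form of the CHR reads TTCAAA, that of the box for NF-Y reads ATTGG, and that of the TEAD letters reads CATTCC. A reverse NF-Y box and a forward TEAD core can overlap by their shared letters. Each is written 5′ to 3′ on the strand of the gene.
Ect2: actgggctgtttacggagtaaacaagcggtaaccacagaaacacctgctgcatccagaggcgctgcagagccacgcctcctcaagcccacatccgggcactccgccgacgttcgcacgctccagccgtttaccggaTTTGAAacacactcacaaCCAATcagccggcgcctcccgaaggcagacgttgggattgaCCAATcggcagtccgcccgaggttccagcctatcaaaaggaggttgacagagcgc
Hmgb2: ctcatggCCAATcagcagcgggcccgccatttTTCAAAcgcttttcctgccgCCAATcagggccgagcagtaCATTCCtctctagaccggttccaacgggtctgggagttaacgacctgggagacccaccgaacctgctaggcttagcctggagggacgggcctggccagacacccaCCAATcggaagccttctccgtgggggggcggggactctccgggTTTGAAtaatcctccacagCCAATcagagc
Lbr: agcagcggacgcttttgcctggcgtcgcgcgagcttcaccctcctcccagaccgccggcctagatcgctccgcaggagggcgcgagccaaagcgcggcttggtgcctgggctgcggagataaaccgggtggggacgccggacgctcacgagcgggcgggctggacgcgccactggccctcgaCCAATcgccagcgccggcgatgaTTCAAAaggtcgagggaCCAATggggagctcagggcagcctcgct
Cdca8: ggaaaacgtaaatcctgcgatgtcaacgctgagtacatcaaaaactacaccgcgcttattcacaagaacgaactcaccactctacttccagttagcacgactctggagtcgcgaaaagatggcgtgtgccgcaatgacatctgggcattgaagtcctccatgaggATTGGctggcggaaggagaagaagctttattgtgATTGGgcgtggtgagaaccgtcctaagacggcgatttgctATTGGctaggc
Ect2 held a TTTGAA and 2 CCAAT boxes, Hmgb2 2 TTTGAA on opposite strands, 4 CCAAT boxes and a reverse GGAATG, Lbr a reverse TTTGAA between 2 CCAAT boxes, and Cdca8 3 reverse CCAAT boxes and no TTTGAA in this window.

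Of the 46 members 40 had a window in the promoter table, and Smc4, Cdc25c, Tpx2, Dlgap5, Cdca2 and Aurkb did not. When the first 50 transcribed bases were included, TTTGAA was found for 30 of 40 members (75%), against 20.2% of all 27025 genes in the table. CCAAT was found for 32 (80%, against 41.1%), and both sets of letters for 25 (62.5%, against 7.97%). In the 250 upstream bases alone TTTGAA was found for 18 members (45%, against 18.3%), so that for the other 12 the letters reached or followed the start. GGAATG was found for 6 members (15%, against 16.6%). Of 100 windows of the other mitosis genes described further on, 41% held TTTGAA, 56% CCAAT and 31% both, and of 31 windows of S phase genes 19.4%, 71% and 12.9%, so CCAAT was frequent in S phase genes too. The members called higher relative to the library held TTTGAA in 12 of 19 windows (63.2%) and the rest in 18 of 21 (85.7%); GGAATG was in 2 and 4 of them. These are matches of letters, not measured binding.

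Among the genes of cytokinesis, Ect2 stood apart. It encodes the exchange factor that activates RhoA at the cell equator to form the contractile ring. Ect2 was at 155, 138, 130.3, 141 and 147 CPM in WT 1 to 5 and at 246, 204, 199.7 and 245 CPM in dKO 1 to 4. All dKO values lay above all WT values, with dKO 1 and 4 highest. The relative log2 difference was 0.65 (SE 0.07, adjusted p = 0.000186, edgeR) and the difference per spike-in count 1.09 (SE 0.11), a 2.13-fold rise. Without WT 2, 3 and 4 the relative difference was 0.56 (adjusted p = 0.0211).

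The other 3 cytokinesis genes differed by far less. Kif23, a motor of the central spindle that recruits Ect2, was at 107, 102, 100.1, 105 and 96.8 CPM in WT and at 114, 114, 112 and 109.6 CPM in dKO, without overlap, and rose by 0.13 relative to the library (SE 0.04, adjusted p = 0.0183, edgeR). Anln, the ring scaffold anillin, was at 95.6, 89.7, 84.4, 86.8 and 86.5 CPM in WT and at 99.3, 99.4, 93.7 and 103 CPM in dKO, with a relative rise of 0.16 (SE 0.04, adjusted p = 0.0198). Here dKO 3 lay below WT 1. Neither Kif23 (0.13, adjusted p = 0.234) nor Anln (0.11, adjusted p = 0.356) passed without WT 2, 3 and 4. Kif20b, a kinesin of late cytokinesis, was at 112, 96.3, 91.1, 98.4 and 93.3 CPM in WT and at 112, 112, 104 and 98.5 CPM in dKO; it missed the threshold at 0.13 (SE 0.06, adjusted p = 0.155). Per spike-in count these 3 rose by 0.56 to 0.60 on the log2 scale.

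**Figure D2:**
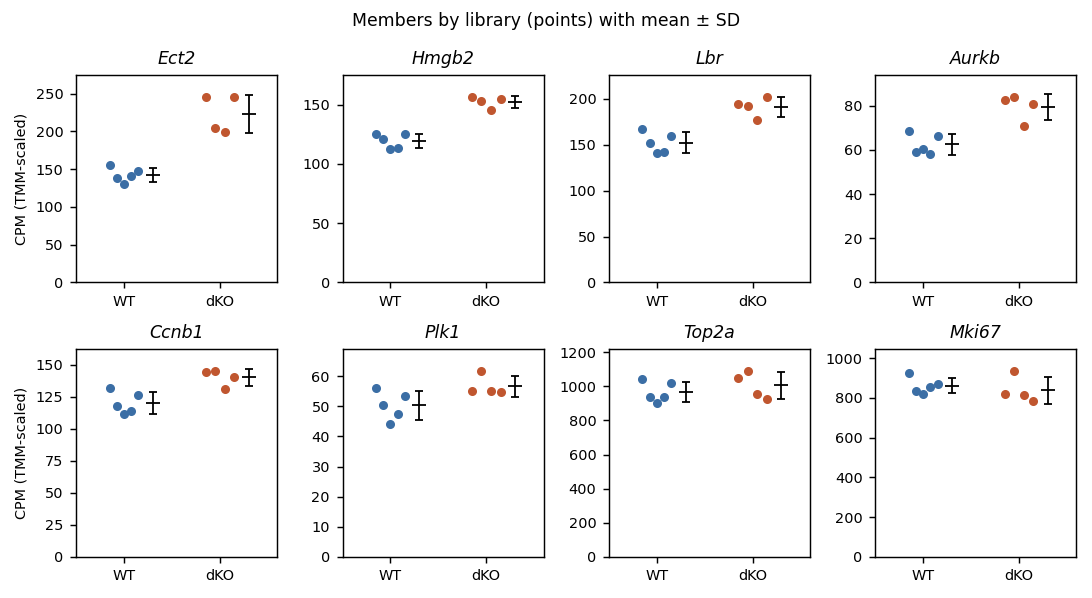
TMM-scaled CPM of 8 members in each library (points, 5 WT in blue and 4 dKO in orange) with the group mean ± SD beside them; each axis starts at 0. Ect2, Hmgb2, Lbr and Aurkb separate the groups, while Plk1, Top2a and Mki67 overlap.

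Of the 7 genes of chromosome structure and chromatin, 2 rose relative to the library and 5 did not pass, with a median of 0.06. Hmgb2, a DNA-bending chromatin protein abundant in dividing cells, was at 125, 121, 113, 114 and 125 CPM in WT and at 156, 153, 145 and 154 CPM in dKO. The lowest dKO library exceeded the highest WT library, and the relative rise was 0.35 (SE 0.04, adjusted p = 0.000295, edgeR; 0.28, adjusted p = 0.0276, without WT 2, 3 and 4). Smc4, the ATPase core of condensin, was at 361, 321, 313, 319 and 338 CPM in WT and at 428, 407, 371 and 399 CPM in dKO, a rise of 0.28 (SE 0.05, adjusted p = 0.00297) that did not pass without WT 2, 3 and 4 (0.19, adjusted p = 0.153). Its partner Ncapd2, a regulatory subunit of condensin I, showed no such separation. Ncapd2 was at 338, 311, 303, 321 and 331 CPM in WT and at 299, 334, 303 and 293 CPM in dKO, the lowest relative value of the 46 (-0.06, SE 0.05, adjusted p = 0.380).

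The 2 most used proliferation markers of the list gave overlapping values. Mki67, the coat protein of mitotic chromosomes behind the Ki-67 antigen, was at 922, 836, 821, 856 and 871 CPM in WT and at 821, 934, 812 and 781 CPM in dKO. Top2a, the topoisomerase that untangles chromosomes, was at 1043, 939, 902, 937 and 1018 CPM in WT and at 1052, 1089.5, 954 and 928 CPM in dKO. For both, dKO 2 was the highest dKO library and WT 1 the highest WT library. Their relative values of -0.04 (SE 0.06, adjusted p = 0.659) and 0.06 (SE 0.06, adjusted p = 0.568) did not pass, whereas per spike-in count they rose by 0.40 (SE 0.12, adjusted p = 0.00442) and 0.49 (SE 0.12, adjusted p = 0.000703). Anp32e, a histone H2A.Z chaperone (0.06), and Cdca2, which targets a phosphatase to anaphase chromosomes (0.01), did not pass in the relative fit either.

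Both genes of the nuclear envelope, which breaks down and reforms around mitosis, were higher on average in dKO. Lbr, the lamin B receptor, was at 167, 152, 141, 142 and 159 CPM in WT and at 195, 192, 176 and 202 CPM in dKO, without overlap, a relative rise of 0.33 (SE 0.06, adjusted p = 0.00193, edgeR). Tmpo, which encodes the lamina-associated LAP2 proteins, was at 643, 591, 566, 569.9 and 609 CPM in WT and at 686, 652, 599 and 638 CPM in dKO, where dKO 3 and 4 lay within the WT range. Its relative value was 0.11 (SE 0.05, adjusted p = 0.145). Lbr did not pass without WT 2, 3 and 4 (0.22, adjusted p = 0.0861).

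In the CDK1 engine and its regulators, 5 of 7 genes rose relative to the library, with a median of 0.17. Cdk1, the mitotic kinase itself, was at 132, 119, 109.6, 115 and 119 CPM in WT and at 139, 129.8, 126 and 139 CPM in dKO. Its activator Ccnb1, cyclin B1, was at 132, 118, 111, 114 and 126 CPM in WT and at 144, 145, 131 and 140.3 CPM in dKO. WT 1 was the highest WT library for both and lay above dKO 2 and 3 for Cdk1 and above dKO 3 for Ccnb1. Relative rises were 0.17 (SE 0.05, adjusted p = 0.0360, edgeR) for Cdk1 and 0.22 (SE 0.05, adjusted p = 0.0109) for Ccnb1, and neither passed without WT 2, 3 and 4 (0.08, adjusted p = 0.520, and 0.11, adjusted p = 0.329). Cks1b, a small CDK-binding subunit, was at 47.9, 45.2, 40.7, 40.4 and 46.6 CPM in WT and at 53.8, 53.2, 52.3 and 49.7 CPM in dKO, without overlap (0.25, SE 0.06, adjusted p = 0.0123). Its close relative Cks2 rose by 0.28 (SE 0.09, adjusted p = 0.0410) and the CDK1-activating phosphatase gene Cdc25c by 0.16 (SE 0.05, adjusted p = 0.0352). The calls of Cks1b (0.14, adjusted p = 0.298), Cks2 (0.10, adjusted p = 0.576) and Cdc25c (0.18, SE 0.07, adjusted p = 0.213) were also lost without those 3 libraries. For Cdc25c the value did not shrink in that fit, while its SE was larger. Ccnb2, the other B-type cyclin of the list, missed the threshold at 0.17 (SE 0.07, adjusted p = 0.0970).

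Cdca3, which promotes loss of the CDK1 inhibitor WEE1, had the lowest value of the CDK1 group. It was at 99.5, 89.4, 91.2, 93.8 and 98.4 CPM in WT and at 96.7, 109, 90.9 and 95.1 CPM in dKO. The groups overlapped widely, and the relative value was 0.05 (SE 0.05, adjusted p = 0.530, edgeR). Per spike-in count the 7 genes rose by 0.49 to 0.71.

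The mitotic and checkpoint kinases gave 2 relative rises among 5 genes. Bub1, the kinetochore kinase of the spindle checkpoint, was at 128, 112, 105, 113 and 120.0 CPM in WT and at 143, 135, 131 and 129 CPM in dKO, with no overlap and a rise of 0.22 (SE 0.05, adjusted p = 0.0127, edgeR). Nek2, which helps centrosomes to separate, was at 58.6, 50.8, 52.9, 53.0 and 53.7 CPM in WT and at 63.9, 60.4, 56.8 and 60.3 CPM in dKO, a rise of 0.17 (SE 0.05, adjusted p = 0.0333). For Nek2 a single WT library, WT 1, reached the dKO range. Both calls were lost without WT 2, 3 and 4, for Bub1 at 0.11 (adjusted p = 0.336) and for Nek2 at 0.10 (adjusted p = 0.508). Plk1, the Polo kinase needed from mitotic entry to cytokinesis, was at 56.2, 50.5, 44.0, 47.6 and 53.5 CPM in WT and at 55.3, 61.7, 55.0 and 54.6 CPM in dKO. Plk1 had the same relative value as Nek2 to 2 decimals with a wider error (0.17, SE 0.07, adjusted p = 0.0994), and so missed the threshold. Ttk, the checkpoint kinase MPS1, was at 57.2, 51.2, 49.7, 53.0 and 53.2 CPM in WT and at 57.9, 58.0, 51.5 and 54.3 CPM in dKO (0.07, SE 0.05, adjusted p = 0.378). Aurka, the Aurora kinase of spindle poles, had a relative value of 0.11 (SE 0.05, adjusted p = 0.149).

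Aurkb, the Aurora kinase that corrects faulty attachments as part of the chromosomal passenger complex, had a larger value than Aurka; that difference was not tested. Aurkb was at 68.7, 59.1, 60.4, 58.2 and 66.3 CPM in WT and at 82.5, 84.1, 70.7 and 80.8 CPM in dKO, without overlap, a relative rise of 0.35 (SE 0.06, adjusted p = 0.00292, edgeR). Cdca8, the borealin subunit of the complex, was at 91.3, 80.5, 76.0, 80.3 and 82.5 CPM in WT and at 97.8, 102, 94.4 and 94.2 CPM in dKO, also without overlap (0.25, SE 0.05, adjusted p = 0.00500). Neither Aurkb (0.23, adjusted p = 0.153) nor Cdca8 (0.16, adjusted p = 0.216) passed without WT 2, 3 and 4. The survivin subunit Birc5 was at 64.9, 54.0, 51.8, 53.6 and 59.7 CPM in WT and at 63.4, 67.5, 59.1 and 63.5 CPM in dKO. WT 1 was above all dKO libraries but dKO 2, and Birc5 missed the threshold at 0.16 (SE 0.07, adjusted p = 0.105). Per spike-in count Aurkb rose 1.72-fold, Cdca8 1.61-fold and Birc5 1.52-fold.

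The 2 genes that act with the anaphase-promoting complex, the ubiquitin ligase of mitotic exit, had similar values. Cdc20, its mitotic activator, was at 128, 108, 106, 114 and 122 CPM in WT and at 132, 136, 127 and 138 CPM in dKO, where only WT 1 reached the dKO range (0.21, SE 0.06, adjusted p = 0.0193, edgeR). That call was lost without WT 2, 3 and 4 (0.08, adjusted p = 0.441). Ube2c, its ubiquitin-conjugating enzyme, was at 90.9, 81.7, 74.1, 77.9 and 86 CPM in WT and at 98.5, 99.8, 86.5 and 88.9 CPM in dKO. At 0.19 (SE 0.06) it fell just short in edgeR (adjusted p = 0.05 after rounding) and passed with DESeq2 and limma-voom. Exons of Ube2c share 22.8% of their length with Tnnc2 on the opposite strand in GENCODE M21, and the strand setting of the counting is not given, so this count is uncertain.

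Kinetochore and centromere genes gave 2 relative rises among 5. Cenpe, the motor that moves chromosomes to the spindle equator, was at 276, 252, 237, 246 and 261 CPM in WT and at 292, 296, 272 and 271 CPM in dKO (0.15, SE 0.05, adjusted p = 0.0388, edgeR). Ndc80, which binds microtubule ends, was at 54.1, 47.8, 44.6, 48.3 and 49.5 CPM in WT and at 58.0, 56.9, 52.2 and 53.0 CPM in dKO (0.18, SE 0.06, adjusted p = 0.0498). WT 1 again entered the dKO range for both, and the call of Ndc80 was lost under all 5 other filters and scalings tried. Calls of both were lost without WT 2, 3 and 4 (Cenpe 0.07, adjusted p = 0.601, Ndc80 0.08, adjusted p = 0.604). Hjurp, the chaperone of the centromeric histone CENP-A, was at 249, 227, 223, 258 and 192 CPM in WT and at 254, 254, 214 and 229 CPM in dKO (0.05, SE 0.08, adjusted p = 0.7), and no dKO library exceeded WT 4. Nuf2, the partner of Ndc80, and Cenpf, a large outer kinetochore protein, did not pass, at 0.09 and 0.14.

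Among 11 genes of spindle microtubules and motors, 6 rose relative to the library, with a median of 0.17. Tacc3, which crosslinks kinetochore fibres, was at 132, 118, 112, 115 and 129 CPM in WT and at 146, 147, 136 and 154 CPM in dKO, without overlap (0.27, SE 0.05, adjusted p = 0.00472, edgeR). Dlgap5, which stabilises the same fibres, was at 86.8, 73.7, 75, 71.1 and 78.0 CPM in WT and at 93.4, 97.2, 86.8 and 91.0 CPM in dKO (0.26, SE 0.06, adjusted p = 0.00635), where WT 1 and dKO 3 all but met. Tpx2, an activator of Aurora A on spindles (0.17), Gtse1, a microtubule tip protein (0.21), Ckap2 (0.19) and the tubulin gene Tubb4b (0.17) also rose. All 6 calls were lost without WT 2, 3 and 4, where Tacc3 stood at 0.15 (adjusted p = 0.180), Dlgap5 at 0.16 (adjusted p = 0.248) and the other 4 at 0.06 to 0.13 (adjusted p = 0.428 to 0.618). Hmmr (0.13) and Ckap5 (0.12) did not pass. The motors were lower on the list. Kif2c, the depolymerase that removes faulty attachments, was at 97.6, 87.1, 83.9, 90.6 and 90.6 CPM in WT and at 88.8, 99.6, 89.9 and 89.2 CPM in dKO (0.03, SE 0.05, adjusted p = 0.687), and Kif11, the motor that pushes spindle poles apart, had a relative value of 0.04. Nusap1, which bundles spindle microtubules, was at 0.06. Per spike-in count these 3 still rose, by 0.47 to 0.50.

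Within WT, WT 1 was the highest library for 41 of the 46 genes and WT 3 the lowest for 35, where WT 1 was highest for 27.6% and WT 3 lowest for 19.6% of all 17182 genes tested. The median member stood at a log2 of 0.12 above its WT mean in WT 1, 0.04 in WT 5, -0.03 in WT 4, -0.04 in WT 2 and -0.09 in WT 3. In dKO 1 to 4 it stood at 0.20, 0.22, 0.08 and 0.12. WT 1 thus had the level of dKO 4 and more than dKO 3. In dKO 2, 42 members exceeded the highest WT library, in dKO 1 35, in dKO 4 23 and in dKO 3 13, where 27.7%, 29.5%, 30.7% and 23.6% of all genes tested did so in these libraries. WT 2, 3 and 4, with the most reads in no gene, were the 3 lowest libraries; the part of this difference in the relative rises was not tested beyond the fits given above.

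**Figure D3:**
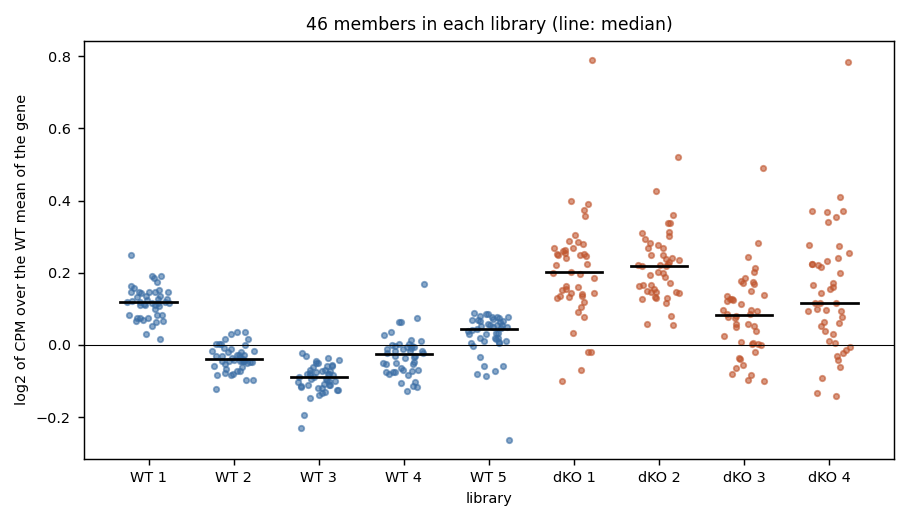
Log2 of the CPM of each member over its own WT mean (vertical axis) in each of the 9 libraries; every point is 1 of the 46 genes, bars are medians, and sideways scatter has no meaning. The WT 1 cloud (median 0.12) sits as high as that of dKO 4 (0.12), WT 3 is lowest (-0.09), and the highest point in each dKO library is Ect2.

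As a share of all gene counts the members overlapped between the groups. They made up 0.910%, 0.815%, 0.790%, 0.818% and 0.848% in WT 1 to 5 and 0.930%, 0.956%, 0.867% and 0.877% in dKO 1 to 4, so that WT 1 exceeded dKO 3 and 4. The 43 S phase genes of a separate list, which act in DNA replication, followed the same order among WT libraries at both ends, with 0.558% in WT 1 and 0.472% in WT 3, and made up 0.527% to 0.601% in dKO. The ratio of summed G2/M counts to summed S phase counts was 1.62 to 1.68 in WT and 1.59 to 1.70 in dKO, with the WT range inside that of dKO. Among S phase genes 13 of 43 rose relative to the library and 0 fell, where 13.7% of all genes rose and 12% fell. At an unadjusted p under 0.05 (edgeR) 0 of them fell either. Their median was 0.14, and they were led by the chromatin remodeller Hells (0.32, SE 0.04) and the deubiquitinase Usp1 (0.28, SE 0.06). Without WT 2, 3 and 4 Hells alone passed among the 43, where 2.33% of all genes rose. No test compared the S phase genes with the 46.

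**Figure D4:**
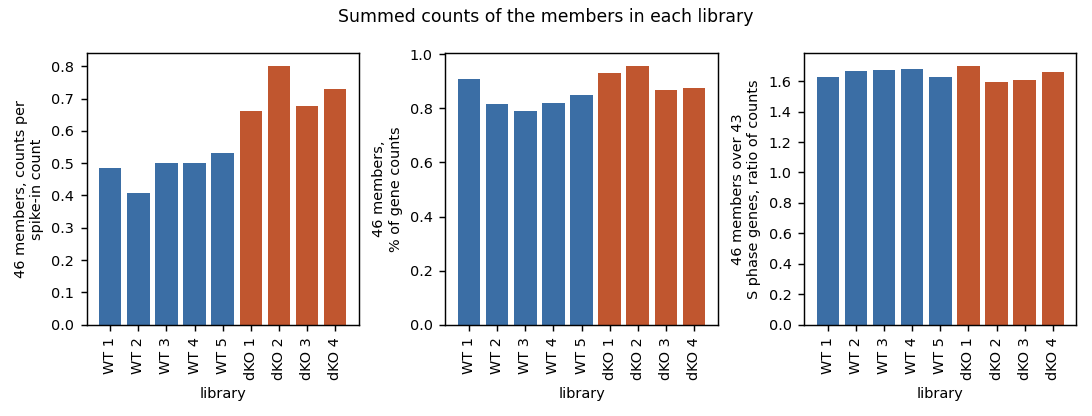
Summed counts of the 46 members in each library (bars, WT blue, dKO orange; axes start at 0) per spike-in count, as a percentage of gene counts, and as a ratio to 43 S phase genes. Per spike-in count the dKO bars (0.661 to 0.8) are all above the WT bars (0.406 to 0.533), while the percentages overlap and the ratios stay between 1.59 and 1.70.

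Between genes, levels can be compared only roughly per length of exon sequence, here in CPM per kb of merged exons. The exons are those of GENCODE M21, an annotation of another build than the counts. Merged exons of all annotated transcripts can be longer than the transcript present, which lowers the value of a gene on this scale. On that scale WT means ran from 7.52 ± 0.53 for Ndc80 (SD, n = 5) and 8.21 ± 0.35 for Cdc25c to 107 ± 6.63 for Top2a and 106 ± 8.25 for Tubb4b. The upper pair did not differ beyond its spread. Mki67 (85.6 ± 3.89) and the H2A.Z chaperone gene Anp32e (71.4 ± 3.44) came next. In dKO the means at both ends were 8.48 for Ndc80 and 120 for Tubb4b, and Ect2 went from 26.4 to 41.5.

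Genes of the same processes that are outside the 46 were taken from 8 lists; their counts stand beside 13.7% of all genes called higher and 12% called lower. Of 20 transcription factor and MuvB, E2F and RB family genes, 4 were called higher and 2 lower in the relative fit, with E2f5, a repressor-type E2F, at 0.43 (SE 0.06, adjusted p = 0.000529, edgeR) and its partner Tfdp1 at 0.15 (SE 0.04, adjusted p = 0.0141); the falls were E2f2 (-0.37) and Rb1 (-0.15). Of 13 other regulators of mitotic entry and exit 4 rose, among them the centriole kinase gene Plk4 (0.31, SE 0.06) and Melk (0.22, SE 0.05). Of 13 genes of the spindle checkpoint and centromere protection 6 rose, such as Trip13 (0.39, SE 0.07), which disassembles the checkpoint complex, and Zwint (0.19, SE 0.04). Of 27 further kinetochore and centromere genes 7 rose, with Cenpi (0.22) and Cenpq (0.32) first. Neither these 3 lists nor the S phase list held a fall at an adjusted or unadjusted p under 0.05 in edgeR.

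Falls as well as rises were called in 3 of the remaining 4 lists, and their shares lay near or below those of all genes, except for rises in cytokinesis. Of 18 genes of the anaphase-promoting complex, 1 rose, Cdc16 (0.14, SE 0.04), and 0 fell, although Anapc7 (-0.10) had an unadjusted p under 0.05 (edgeR). Among 17 other spindle genes 3 rose and 2 fell, the falls being Numa1 (-0.21, SE 0.05), which anchors spindle poles to the cortex, and Cenpj (-0.23, SE 0.06), a centriole growth gene tied to microcephaly. Among 8 other cytokinesis genes 3 rose and 1 fell (Cntrob, -0.18), and the GTPase gene Rhoa, which Ect2 acts on, rose by 0.22 (SE 0.05). The GTPase-activating partner of Ect2, Racgap1, rose by 0.17 (SE 0.05). Among 11 genes of condensin and cohesin 2 rose, Stag2 (0.25) and Smc2 (0.14), and the condensin II gene Ncapd3 fell (-0.12). Over the 8 lists medians ran from 0.04 to 0.18. Without WT 2, 3 and 4 only E2f5 passed in the relative fit, where 2.33% of all genes rose.

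Other cell types were read through their marker lists. The 12 radial glia genes summed to 2823 to 3208 CPM in WT and to 4227 to 4681 CPM in dKO, and the 12 neuronal genes to 4035 to 4840 CPM and 3441 to 3937 CPM, without overlap in either list. The first sum was carried by Vim (709 to 1689 CPM, WT and dKO means) and Nes (784 to 1178 CPM), and the median of that list was 0.06 on the relative log2 scale. In it, Vim, Hes1, Nes and Ddah1 rose relative to the library while Hes5, Fabp7 and Glul fell. Without WT 2, 3 and 4 the 4 rises still passed, where 2.33% of all genes rose. The falls did not, with Hes5 at -1.27 (adjusted p = 0.0651, edgeR), Fabp7 at -0.27 (adjusted p = 0.0653) and Glul at -0.25 (adjusted p = 0.0985). The 7 microglia and macrophage markers, of cells that also divide at this stage, summed to 73.5 to 90.7 CPM in WT and to 89.97 to 135 CPM in dKO. Erythroid markers spanned 2273 to 5811 CPM in WT and 1789 to 3061 CPM in dKO, endothelial markers 211 to 270 CPM and 199 to 272 CPM, and mural and mesenchymal markers 695 to 842 CPM and 625 to 868 CPM. Choroid plexus markers spanned 84.6 to 404 CPM and 123 to 180 CPM, and surface ectoderm markers 7.51 to 21 CPM and 7.28 to 26.0 CPM. No marker of these 6 other types was at 0 in all libraries. The part of these shifts in the values of the 46 genes was not tested.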

How the data were processed

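RNA of 5 WT and 4 dKO embryos was sequenced, 1 library each, with 350 ng of RNA as input to a stranded total RNA kit and reads of 100 bp in pairs. The authors deposited raw counts per gene symbol; STAR, HTSeq and mm9 are named, per the submitters' processing notes, without versions; annotation and strand setting are not given in the sources used. Each file held 34590 genes, 92 spike-ins and 5 rows of reads outside genes, which stayed out of library sizes and tests; 32.0% to 41.3% of reads fell in no gene and 15.7% to 18.3% aligned to several places. The latter were not counted for genes, so Cks1b, Cks2, Tubb4b, Hmgb2 and other genes with close copies may be undercounted, and 7 members share exon sequence with another listed gene (GENCODE M21).

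From the deposited counts, genes were kept by filterByExpr (17182 genes, 99.9% of gene counts) and tested with edgeR 4.0.16 in R 4.3.3 (quasi-likelihood, Benjamini-Hochberg over all genes, threshold 0.05), with TMM factors for the relative fit and the spike-in total as library size for the per spike-in fit; the latter shares 9 spike-in totals among all genes. SE is the log2 difference over the root of F. CPM are TMM-scaled. Tests were tried on simulated data: in the relative fit of 17205 genes, 80% of 50 genes raised and 60% of 50 lowered by a log2 of 0.4, and 100% of 50 changed by 1 in each direction, were called, with 0.0353% of unchanged genes. Every simulated gene had the same dispersion, no library was made to stand apart, and smaller differences were not simulated. The simulation thus gives no rate of calls at the members' median of 0.16. Alternatives were DESeq2 1.42.0, limma-voom 3.58.1, other filters and scalings, a covariate, a replicate block and left-out libraries. No 2 libraries of a group agreed within sampling noise (lowest chi-square per degree of freedom 4.25 over 16 pairs).

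Members and lists were chosen with earlier results of these data known, and no p is given for a score over them. Values in every library are given for the 2 members with the smallest relative adjusted p and the lowest member of each role group of at least 5, all members of smaller groups, and Mki67, Cdk1, Top2a and Plk1; from other lists, marker lists aside, the 2 genes with the smallest p are named. Emx2, Lhx2 and Dlx2 are named as tissue markers; E2f2, Rb1, Cntrob, Ncapd3 and the 7 radial glia genes were picked with their values in view. Of 250 genes on 19 other lists all were found, 5 under an older symbol. Nothing in the sources says whether embryos shared a litter.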

Additional observations from a re-analysis of the deposited data

Results flagged for a closer look

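Among 68 groups of 4 or 5 libraries looked at (30 named members and 4 sums or ratios, each in WT and dKO), 2 held a library far from the others, where chance gives about 1 in 20. Kif2c was at 99.6 CPM in dKO 2 and at 89.9 CPM or less in the other 3 dKO libraries. Plk1 was at 61.7 CPM in dKO 2 and at 55.3 CPM or less in the others. dKO 2 is also the library in which the most members, 42 of 46, exceeded the highest WT library.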

How the results depend on the processing

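Per spike-in count, all 46 rises stood under each of the changes of tool, filter, spike-in choice, covariate, block and single left-out library. In those fits 39% to 72.1% of all genes rose. Without WT 2, 3 and 4, 44 rises stood, where 48.2% of all genes rose. Relative to the library, rises numbered 20 to 26 under other tools, filters and scalings, where 7.96% to 15.8% of all genes rose. They numbered 12 to 30 with each library left out, where 10.3% to 14.9% of all genes rose. With the share of reads in no gene as a covariate they numbered 6 (median 0.087), against 5.76% of all genes. Without WT 2, 3 and 4 they numbered 2 (median 0.082), against 2.33%. Among the members 0 falls were called in any of these fits. Gene counts per spike-in count kept a log2 difference of 0.45 without WT 2, 3 and 4, where 15 assignments allow no p under 0.0667, and 0.39 to 0.50 with each library left out. The sign of some relative values that never passed turned: Cdca3 to -0.021 with the covariate and -0.025 without WT 2, 3 and 4 (-0.00028 to 0.091 with each library left out); Kif2c to -0.019 and -0.041 in the same fits (-0.0066 to 0.069); Top2a to -0.042 and -0.044; Ttk to -0.00067 without WT 2, 3 and 4; Hjurp to -0.010 with the replicate block (-0.0093 to 0.10 with each library left out). The cause of these changes was not tested. Replicate numbers 1 to 4 occur in both groups. Deviations of same-numbered libraries correlated by -0.17, -0.14, -0.33 and 0.16 over 14904 genes, and 0 of 4 dKO libraries correlated best with its own number. Whether any same-numbered libraries shared a litter or a batch was not tested. With the replicate block 19 members rose relative to the library, against 10.8% of all genes, and 46 per spike-in count, against 61%. The shallowest library, WT 1, held 356 counts of its lowest member, so counting error adds to the spread between embryos there.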
